A study of Mus musculus with 16 samples.

Results

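The cytosolic ribosomal protein genes were taken as every gene whose symbol is Rpl or Rps followed by a number, with or without a closing a, x or y, together with Rplp0, Rplp1, Rplp2 and Rpsa. This rule uses names only and found 76 of the 23420 genes listed in the count data, 30 of the small 40S subunit, 43 of the large 60S subunit and 3 of the P stalk. Polyadenylated RNA was sequenced from male C57BL/6 mice. By label, 4 of them lack Trib1, which encodes a pseudokinase, in adipocytes (knockout, KO) and 4 are wild-type (WT). Every mouse gave a library of adipocytes, freed from subcutaneous fat with collagenase, and a library of whole liver. The 4 groups were therefore adipocytes of knockout-labelled mice, adipocytes of wild-type mice, liver of knockout-labelled mice and liver of wild-type mice, with 4 libraries each. Mice KO-1151 and KO-1152 and mouse WT-1153 were taken on postnatal day 70, and mice KO-1137 and KO-1139 and mice WT-1135, WT-1136 and WT-1138 on day 76. Values of single libraries are listed in the order KO-1137, KO-1139, then KO-1151, then KO-1152 for knockout-labelled mice (KO) and WT-1135, WT-1136, then WT-1138, then WT-1153 for wild-type mice (WT). Neither the Cre driver nor the exons removed are named in the labels, and no liver deletion is described.

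Ribosomal proteins assemble with ribosomal RNA into the 40S subunit, which reads the mRNA, and the 60S subunit, which joins amino acids and carries the P stalk that recruits elongation factors. The subunits take up their proteins in fixed proportion, so cells make them in step, and mammalian ribosomal protein mRNAs begin with a C followed by a run of pyrimidines, the 5′ terminal oligopyrimidine or TOP element, through which mTORC1 and LARP1 set their translation and stability. Fat cells and hepatocytes both translate large amounts of secreted protein, such as adiponectin and albumin.

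Bases around the annotated starts of the genes that the results below turn on are shown because the TOP element lies there. The RefSeq promoter table for GRCm38.p6 had an entry for 56 of the 76 genes. Each line runs 5′ to 3′ over 30 bases, 15 before the annotated start and 15 from it, and capitals mark a TOP-like run, defined as a C within 5 bases of the start followed by at least 4 C or T. The first 4 genes are those lowest in knockout-labelled adipocytes by p-value. The others are picked from those called apart from the rest of the family between adipocytes and liver in both genotypes.
Rps27: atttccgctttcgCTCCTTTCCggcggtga
Rpl35a: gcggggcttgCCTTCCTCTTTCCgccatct
Rps21: taccgaggacccgCCCTCCTgcccaatagt
Rpl27a: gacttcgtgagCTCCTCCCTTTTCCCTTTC
Rplp2: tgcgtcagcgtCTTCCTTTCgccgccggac
Rps19: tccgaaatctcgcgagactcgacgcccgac
Rpl9: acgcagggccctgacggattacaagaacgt
Rps2: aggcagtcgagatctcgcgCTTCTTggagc
Rps18: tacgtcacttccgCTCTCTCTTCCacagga
The windows lie at chr3:90213634-90213663 (minus strand) for Rps27, chr16:33056467-33056496 (plus strand) for Rpl35a, chr2:180257364-180257393 (plus strand) for Rps21, chr7:109519180-109519209 (plus strand) for Rpl27a and chr7:141447636-141447665 (plus strand) for Rplp2. Those of the others lie at chr7:24884577-24884606 (plus strand) for Rps19, chr5:65391417-65391446 (minus strand) for Rpl9, chr17:24720048-24720077 (plus strand) for Rps2 and chr17:33955651-33955680 (minus strand) for Rps18. Of these 9 windows, those of Rps19 and Rpl9 held no TOP-like run at the annotated start. Each gene was represented by a single start, and where it had several entries the one with the longest TOP-like run was kept. A TOP-like run was found at 27 of the 56 ribosomal starts kept, or 48.2%. Among all 27025 starts kept the share was 21.2%. Both shares are therefore the highest that the choice of entry allows. The windows above and the motif shares below rest on the same entries. In the 300 bases around the start, from 250 before to 50 after it and on both strands, CCGGAAG, the core bound by ETS factors, was found in 41.1% of the ribosomal windows and 9.1% of all windows. GGGCGG, the Sp1 core, was found in 58.9% against 35.6%, AAGATGGC, the YY1 motif, in 8.9% against 2.9%, and TATAAA, the TATA box, in 10.7% against 14.1%. These are letter matches in the annotated windows and not measurements of where transcription began or what was bound.

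The libraries held 28560887 to 53716669 counts, with counts in 15279 to 16747 genes. Trib1 did not separate the genotype labels, so directions below are those of the libraries labelled knockout. In adipocytes Trib1 stood at 919.9 to 1205 CPM in knockout-labelled libraries and 615 to 1069.8 CPM in wild-type libraries (log2 difference 0.28 ± 0.18, SE; edgeR adjusted p = 0.241, 4 libraries per group). In liver it stood at 49.0 to 91.5 CPM in knockout-labelled libraries and 60.6 to 86.4 CPM in wild-type libraries. CPM here are counts scaled to library size with TMM factors, which align the bulk of genes across the 16 libraries. The tissues matched their labels: 12 hepatocyte markers summed to 19.1 to 107 CPM in adipocyte libraries and 146338 to 184829 CPM in liver, and 12 adipocyte markers summed to 38613 to 63312 CPM and 245 to 319 CPM. Taken over all genes together, libraries of a group differed from each other far beyond counting error, so the spread between mice set the precision of well-counted genes. For genes with few counts, named below, counting error adds to that spread.

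Together the 76 genes took up 1 to 2% of all counts, and the balance of the subunits was nearly the same everywhere. Their share of a library's counts was 1.26, 1.13, 1.10 and 1.41% in knockout-labelled adipocytes and 1.75, 1.64, 1.26 and 1.46% in wild-type adipocytes. These ranges overlapped, since mouse WT-1138 (1.261%) fell below mouse KO-1152 and just below mouse KO-1137 (1.264%). In liver the share was 1.48, 1.41, 1.45 and 1.37% in knockout-labelled mice and 1.19, 1.33, 1.34 and 1.43% in wild-type mice, again overlapping. Genes of the 40S subunit took 39.1 to 40.6% of the ribosomal protein counts in all 16 libraries. The mean of this 40S share was 40.3 ± 0.265% in knockout-labelled adipocytes, 40.1 ± 0.514% in wild-type adipocytes, 39.2 ± 0.148% in knockout-labelled liver and 39.4 ± 0.164% in wild-type liver (SD, n = 4 each). In bulk samples, fewer cells of a type and less RNA per cell cannot be told apart.

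**Figure D1:**
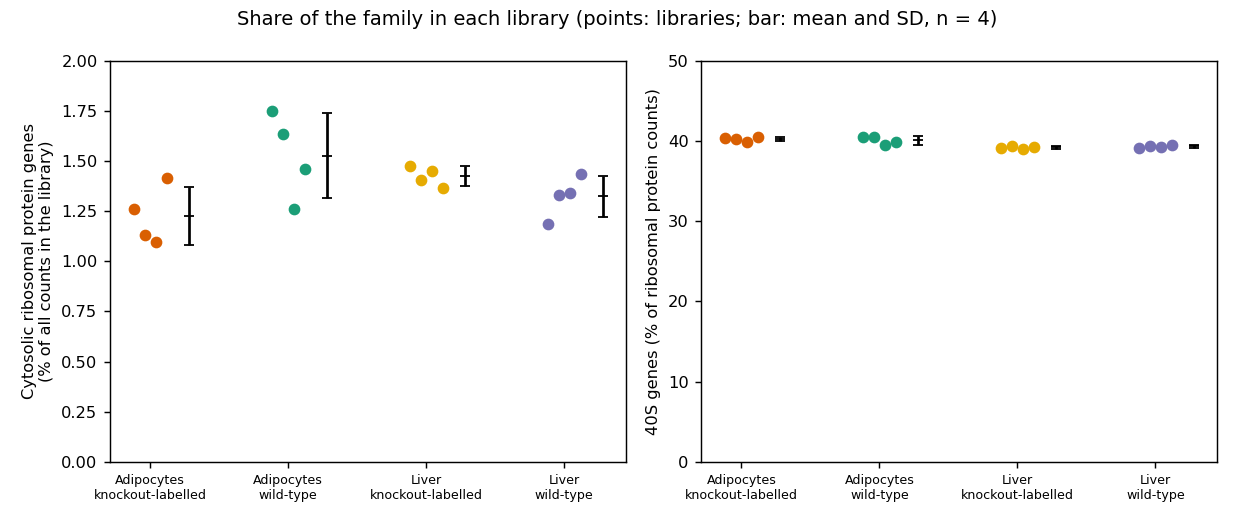
Share of the ribosomal protein genes in each library, in percent of all counts (left), and share of the 40S genes in percent of the ribosomal protein counts (right), by group; points are libraries and bars the mean with SD (n = 4). The family's share spans 1.10 to 1.75% while the 40S share stays within 39.1 to 40.6%.

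Of the 76 genes 72 were abundant, with 2251 to 19636 counts per library on average, and 4 were not. Rpl26, a 60S protein, had 0 counts in 15 libraries and 1 count in the liver library of mouse KO-1152. The limit that a count of 0 allows was 0.0558 to 0.105 CPM depending on the library, taken from library totals without TMM factors. Rpl26 was the only one of the 76 that no comparison tested. Rpl30 had 9 to 31 counts, Rpl34 10 to 87 and Rps27 11 to 160 counts per library. Stretches of 50 bases of the annotated transcript that also occur in transcripts of other genes made up 71.3% of Rpl26, 47.8% of Rpl30, 50.6% of Rpl34 and 98.6% of Rps27, against a median of 55.5% over the 72 abundant genes, 17 of the 76 being above 80%. The part of this sharing in the low counts was not tested, and the counts of these 4 genes are uncertain as measures of their mRNA.

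Per kilobase of annotated transcript, levels differed 16.4-fold to 19.2-fold between the highest and the lowest of the 72 abundant genes, depending on the group, but only 3.2-fold to 3.74-fold between the 90th and the 10th percentile. In wild-type adipocytes the highest levels per kilobase were those of Rpl41, which encodes the shortest ribosomal protein (640.3 CPM per kb), the stalk proteins Rplp1 (619) and Rplp2 (619), and the 40S proteins Rps12 (459.9) and Rps29 (428). In wild-type liver they were those of Rplp1 (865 CPM per kb), the 40S protein Rps2 (585), Rpl41 (559.5), the 60S protein Rpl10 (538), which joins the 60S subunit late in its maturation, and Rpl7a (532). The lowest of the 72 was Rps20 in both tissues, at 37.8 CPM per kb in wild-type adipocytes and 45.1 in wild-type liver, but its annotated transcript of 3706 bases is long for a ribosomal protein mRNA. Across the 72 genes the log2 level per kilobase in wild-type adipocytes followed that in wild-type liver (Pearson r = 0.871, Spearman rho = 0.853), both levels being divided by the same transcript length.

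In adipocytes the family lay slightly lower in knockout-labelled than in wild-type libraries, by a median log2 difference of -0.16 over the 75 genes tested, against -0.01 over all 13795 genes tested. The log2 difference was below 0 for 70 of the 75 genes, and for 27 of 30 genes of the 40S and 41 of 42 genes of the 60S subunit. Few of them passed the test singly: 0 were called higher and 3 lower at an adjusted p under 0.05, where 18% of all genes were called higher and 17.1% lower. The 3 were Rps27, Rpl35a and Rps21. The pooled SD between libraries of a group in the mean log2 level of the family was 0.12, so the family's shift was of the size of that spread. With library totals in place of TMM the median moved to -0.35 over the family and -0.20 over all genes, so that relative to all genes the family stood at -0.15 under both scalings. A change of scaling moves all genes nearly alike, so these values had to be close and do not test the family's shift.

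Rps27, a zinc finger protein of the 40S subunit (chr3:90212522-90213651, minus strand), had 1.08, 1.30, 0.770 and 1.12 CPM in knockout-labelled adipocytes and 2.53, 1.77, 2.26 and 1.77 CPM in wild-type adipocytes. It was the only one of the 75 whose groups did not overlap, which 14% of all genes tested also showed in the lower direction. Its log2 difference was -0.99 ± 0.24 (SE, 4 libraries per group, edgeR adjusted p = 0.0111), and it rests on 33 to 75 counts in knockout-labelled and 86 to 160 counts in wild-type libraries.

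Rpl35a, a 60S protein whose human counterpart is mutated in Diamond-Blackfan anaemia (chr16:33056453-33060189, plus strand), had 60.8, 54.5, 56.3 and 67.2 CPM in knockout-labelled adipocytes and 78.3, 78.5, 65.3 and 73.9 CPM in wild-type adipocytes. Knockout-labelled mouse KO-1152 lay above mouse WT-1138, and the other libraries kept the order of the groups. Between the genotype labels the log2 difference was -0.34 ± 0.09 (SE, 4 libraries per group, edgeR adjusted p = 0.0178).

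Rps21, a small protein of the 40S subunit (chr2:180257377-180258445, plus strand), had 61.1, 56.7, 49.96 and 64.9 CPM in knockout-labelled adipocytes and 85.2, 82.0, 61.2 and 67.7 CPM in wild-type adipocytes. The groups overlapped in the same 2 mice, and the log2 difference was -0.37 ± 0.12 (SE, 4 libraries per group, edgeR adjusted p = 0.0402). The next 2 by p-value did not pass: the 60S protein Rpl27a stood at -0.29 ± 0.11 (edgeR adjusted p = 0.0567) and Rpl8, a 60S protein next to the peptidyl transferase centre, at -0.29 ± 0.11 (edgeR adjusted p = 0.0594). At the other end Rps2, a 40S protein, had the highest log2 difference of the 75, 0.22 ± 0.11 (edgeR adjusted p = 0.134), with 295, 297, 284 and 321 CPM in knockout-labelled and 257, 302, 219.6 and 232 CPM in wild-type adipocytes. The 3 stalk genes stood at 0.01 ± 0.10 for Rplp0, -0.15 ± 0.12 for Rplp1 and -0.12 ± 0.11 for Rplp2, and none passed.

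**Figure D2:**
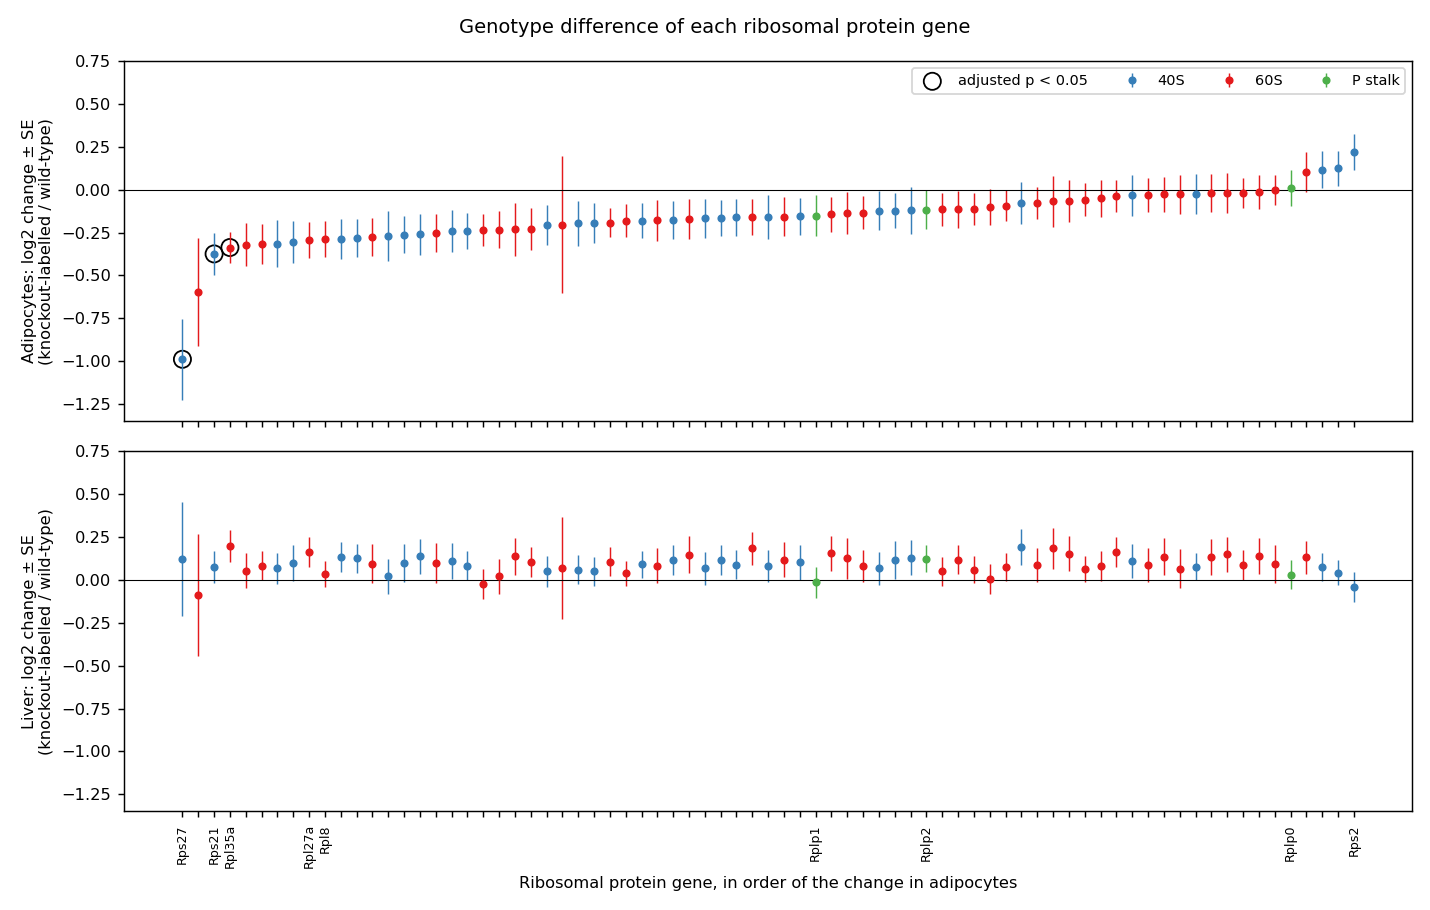
Log2 difference with SE of each of the 75 tested genes between knockout-labelled and wild-type libraries, in adipocytes (top) and liver (bottom), in the order of the difference in adipocytes; colours mark the subunit and circles an adjusted p under 0.05, and genes whose values are given above are named. In adipocytes 70 of 75 points lie below 0 and 3 are circled, and in liver 71 lie above 0 and 0 are circled.

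The count of calls among these genes depended on single mice. Leaving out mouse WT-1138 gave 11 genes lower and leaving out mouse KO-1152 gave 10, where 13.1% and 12.5% of all genes were called lower. Leaving out mouse KO-1139 or KO-1151 left 1, where 12.3% and 12.6% were, and without mouse WT-1136 Rps2 was called higher, at a log2 difference of 0.30. Rps27 was called without any 1 of the 8 libraries (edgeR adjusted p = 0.0138 to 0.0332), Rpl35a was not without mouse KO-1139 or KO-1151 (0.0143 to 0.0587 over the 8), and Rps21 was not without mouse WT-1135 or WT-1136 or mouse KO-1137, KO-1139 or KO-1151 (0.0238 to 0.106). With age as a term Rps27 (0.0169) and Rpl35a (0.0218) were called and Rps21 was not (-0.35, edgeR adjusted p = 0.0649). DESeq2 called 10 genes lower, where it called 19.7% of all genes lower, and library totals 34, where 28.2% of all genes were called lower. Among the mice of 76 days 0 were called by edgeR, where 6.26% of all genes were called lower.

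Markers of the stromal cells of fat moved with the genotype label in the same libraries. In adipocytes 14 of 14 endothelial markers, 12 of 14 fibroblast and progenitor markers and 9 of 10 mural markers were called lower in knockout-labelled libraries. Of all genes tested 17.1% were called lower. Summed endothelial markers were at 260.1 to 577 CPM in knockout-labelled and 875 to 2458 CPM in wild-type libraries, summed fibroblast and progenitor markers at 629.8 to 1212 against 1467 to 1560.1 CPM, and summed mural markers at 96.0 to 154 against 242 to 356 CPM. None of these markers was at 0 in an adipocyte library. Of the macrophage markers 1 of 14 and of the lymphocyte markers 5 of 13 tested were called lower, against the same 17.1% of all genes. With the mean log2 level of the endothelial, fibroblast and mural markers as a covariate 0 ribosomal protein genes were called. Rps27 stood at -0.36, Rpl35a at -0.26 and Rps21 at -0.03. In all 447 genes were called, where 18% of all genes were called higher and 17.1% lower without the covariate. The covariate was 3.24 to 4.40 in knockout-labelled and 4.68 to 5.91 in wild-type libraries. Because these ranges do not overlap, its effect cannot be told apart from that of the genotype label. Scaled to the summed counts of the family itself, which asks whether a gene moved relative to the other ribosomal protein genes, Rps27 alone was called, at -0.88 ± 0.27 (edgeR adjusted p = 0.0297), where 11.1% of all genes were called lower.

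Other protein machines measured in the same adipocyte libraries lay on the other side of 0, where 18% of all genes were called higher and 17.1% lower. Of the 76 mitochondrial ribosomal protein genes, whose products form the separate ribosome of mitochondria, 44 were called higher and 0 lower, with a median log2 difference of 0.31. Of the 37 proteasome subunits tested 18 were called higher and 3 lower, with a median of 0.26. The cytosolic ribosomal protein genes had 0 higher and 3 lower of 75.

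**Figure D3:**
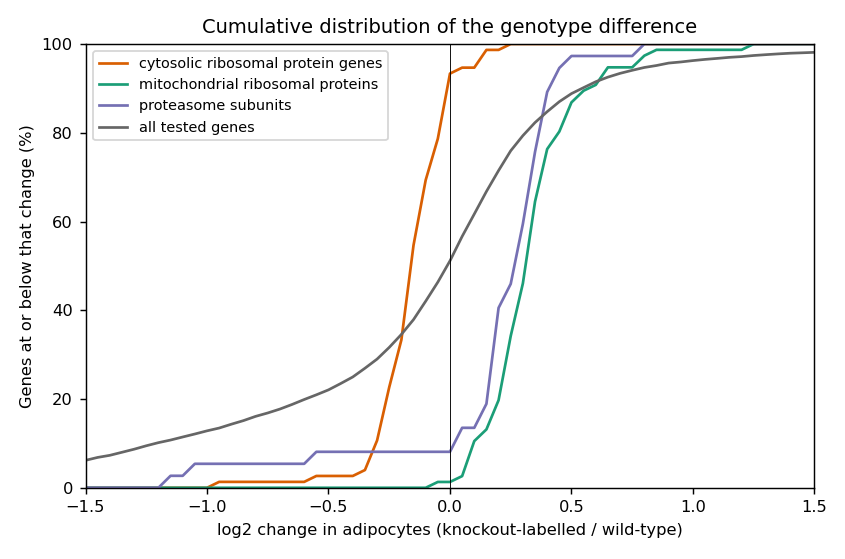
Percent of genes at or below each log2 difference in adipocytes (knockout-labelled over wild-type), for the 75 cytosolic ribosomal protein genes, the 76 mitochondrial ribosomal protein genes, the 37 proteasome subunits and all 13795 genes tested. The cytosolic family's curve is narrow and left of 0, with a median of -0.16, and those of the mitochondrial ribosome and the proteasome lie right of it, with medians of 0.31 and 0.26.

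Genes that build or regulate the cytosolic ribosome were set against the same 18% higher and 17.1% lower of all genes. Of 42 ribosome biogenesis genes 5 were called higher and 1 lower, among them the 40S maturation factors Ltv1 (0.50 ± 0.10, edgeR adjusted p = 0.00581), Pno1 (0.47 ± 0.10, 0.0081) and Tsr1 (0.43 ± 0.12, 0.0204), all higher. Of 12 RNA polymerase I genes 1 was called, Ubtf, the factor that opens ribosomal DNA for transcription, which fell by 0.23 on the log2 scale (edgeR adjusted p = 0.0448). Of 13 elongation factors and other mRNAs with a TOP element 0 were called by edgeR at the adjusted threshold, 1 of them having an unadjusted p under 0.05, and their median of 0.05 was above 0 while that of the ribosomal protein genes was below it. Of 30 initiation factors 8 were called higher and 0 lower, led by the helicase Eif4a2 at 0.70 ± 0.09 (edgeR adjusted p = 0.000597). Of 19 genes of mTORC1, its targets and regulators of TOP mRNAs 7 were called higher and 1 lower, with Mtor, the kinase itself, at 0.58 ± 0.11 (edgeR adjusted p = 0.00342) and Larp1b, a relative of the TOP-binding protein, at 0.70 ± 0.12 (edgeR adjusted p = 0.00304). Of 8 host transcripts of small nucleolar RNAs, several of which also start with a TOP element, 1 was called higher and 3 lower: Snhg6 was at 0.51 ± 0.14, Gas5 at -0.32 ± 0.11, Snhg1 at -0.47 ± 0.12 and Snhg8 at -0.48 ± 0.12. Of 18 targets of p53, which free ribosomal proteins can stabilise, 3 were called higher and 3 lower, near the share of all genes in both directions.

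The annotated start sequence, in the entries kept for their longest TOP-like run, made little difference within the family. In adipocytes the median log2 difference was -0.16 over the 27 genes with a TOP-like start and -0.15 over the 28 tested genes without one, although all 3 called genes had such a start.

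In liver, where no deletion is described, the family lay slightly higher in knockout-labelled libraries and no gene passed. Log2 differences were above 0 for 71 of the 75 genes, with a median of 0.09 against 0 over all 13288 genes tested. edgeR called 0 of the 75 in either direction at the adjusted threshold, 0 had an unadjusted p under 0.05, and DESeq2 also called 0; of all genes 0.0226% were called at the adjusted and 8.62% at the unadjusted threshold. Every 1 of the 75 log2 differences lay between -0.09 and 0.20.

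The smallest p-value in liver belonged to Rpl35a, with 158, 169, 169.9 and 176 CPM in knockout-labelled and 126, 143, 149 and 168 CPM in wild-type liver. These groups overlapped through mouse WT-1153, and the log2 difference was 0.20 ± 0.09 (SE, 4 libraries per group, edgeR adjusted p = 0.59). Rpl23, a 60S protein that can bind Mdm2, had 337, 342, 344 and 341 CPM in knockout-labelled and 249.7, 309, 321 and 326 CPM in wild-type liver. Its groups did not overlap, nor did those of Rps23 and Rps26, all 3 higher in knockout-labelled liver, where 2.3% of all genes tested were higher without overlap. The log2 difference of Rpl23 was 0.18 ± 0.10 (edgeR adjusted p = 0.635), and the next 3 by p-value, Rpl27a, Rps12 and Rpl23a, stood at 0.16 ± 0.09, 0.19 ± 0.10 and 0.16 ± 0.09. Wild-type mouse WT-1135 was the lowest of the 8 liver libraries in the family's share of counts.

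The genotype difference was then set against itself between the tissues, as the difference in adipocytes minus that in liver in a fit of all 16 libraries. The family's median was -0.23 against -0.01 over all 14898 genes tested. Of the 75 genes 0 were called higher and 2 lower, where 10.4% and 8.73% of all genes were called. Rpl35a, whose library values stand above, differed by -0.51 ± 0.14 (SE, edgeR adjusted p = 0.0146), its log2 difference between genotype labels being -0.34 in adipocytes and 0.20 in liver.

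Rpl27a, a 60S protein (chr7:109519147-109522367, plus strand), had 101, 89.95, 96.3 and 115 CPM in knockout-labelled and 136, 122, 104 and 122 CPM in wild-type adipocytes. In liver it had 209.7, 229, 217 and 235 CPM in knockout-labelled and 178, 192, 202 and 226 CPM in wild-type mice. The groups overlapped in both tissues, and the difference between the tissues was -0.43 ± 0.14 (SE, edgeR adjusted p = 0.0455). With the mouse as a block, since both tissues came from the same animals, 1 gene was called lower, where 7.21% of all genes were: Rpl35a stayed at -0.52 (edgeR adjusted p = 0.0391) and Rpl27a stood at -0.43 (0.0901). Without mouse WT-1135 or KO-1151 0 of the 75 were called, without WT-1136, KO-1137 or KO-1139 1 was, without KO-1152 4 were and without WT-1138 6 were. Shares of all genes called are not given for these fits without a mouse. Scaled to the family total, 0 were called lower, where 5.75% of all genes were, and 1 higher, Rps2 at 0.48 ± 0.16 (edgeR adjusted p = 0.0399), where 13.8% of all genes were called higher.

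Between the tissues the family lay lower in adipocytes than in liver under TMM scaling, and the reverse held for wild-type mice under library totals. In knockout-labelled mice 3 of 75 genes were called higher and 65 lower in adipocytes, where 40.4% and 39.3% of all genes were called, with a median log2 difference of -0.69 against 0.00 over all genes. In wild-type mice 4 were called higher and 54 lower, where 40.5% and 37.2% of all genes were called, with a median of -0.47 against 0.06. With library totals the counts were 8 higher and 42 lower in knockout-labelled mice and 22 higher and 4 lower in wild-type mice, where 52.1% and 28.1% of all genes were called in knockout-labelled and 58.9% and 21.3% in wild-type mice, since that scaling moved the median of all genes to 0.42 and 0.71. Relative to the median of all genes the family stood at -0.69 in knockout-labelled mice and at -0.54 to -0.53 in wild-type mice under both scalings. These values had to be close between the scalings, since a change of scaling moves all genes nearly alike. The groups did not overlap for 61 genes lower and 4 higher in knockout-labelled mice, where 36.1% and 39.4% of all genes did not, and for 48 lower and 4 higher in wild-type mice, where 34.5% and 38.9% did not. Adipose and liver RNA were extracted by different methods and had RNA integrity numbers above 6 and above 9 per the labels, and these cannot be told apart from the tissue.

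Scaling to the summed counts of the family removes this dependence and shows which genes stood apart from the rest of the family, an arrangement chosen after the data were seen. On this scale 15 of 75 genes were called higher and 24 lower in adipocytes of knockout-labelled mice, where 57.6% and 23.1% of all genes were called, and 14 higher and 12 lower in wild-type mice, where 51.5% and 24.2% were called. The 2 genotype groups share no library. They called the same 13 genes higher and the same 12 lower and 0 in opposite directions, and 62 of the 75 log2 differences had the same sign. These counts and the correlation that follows were not worked out over all genes. Most genes were called between the tissues in each genotype, so such agreement is not shown to be particular to the family. Over the 72 abundant genes the log2 differences followed each other (Pearson r = 0.945, Spearman rho = 0.931), the points sharing their gene and its transcript but no library. Against transcript length they had r = 0.08 in knockout-labelled and 0.07 in wild-type mice, and against the share of 50-base stretches found in other genes -0.045 and -0.088. Among the 13 genes higher in both were Rps27, Rplp2, Rps19, Rpl9, Rpl3, Rps4x, Rpl41, Rplp0, Rps9, Rps12, Rpl23a and Rps3, and the 13 comprised 7 of the 40S, 4 of the 60S subunit and 2 of the P stalk. Among the 12 lower in both were Rps2, Rps18, Rpl35a, Rpl10, Rps16, Rpl12, Rpl28, Rpl38, Rpl7a, Rpl37 and Rpl27, and the 12 comprised 4 of the 40S and 8 of the 60S subunit.

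**Figure D4:**
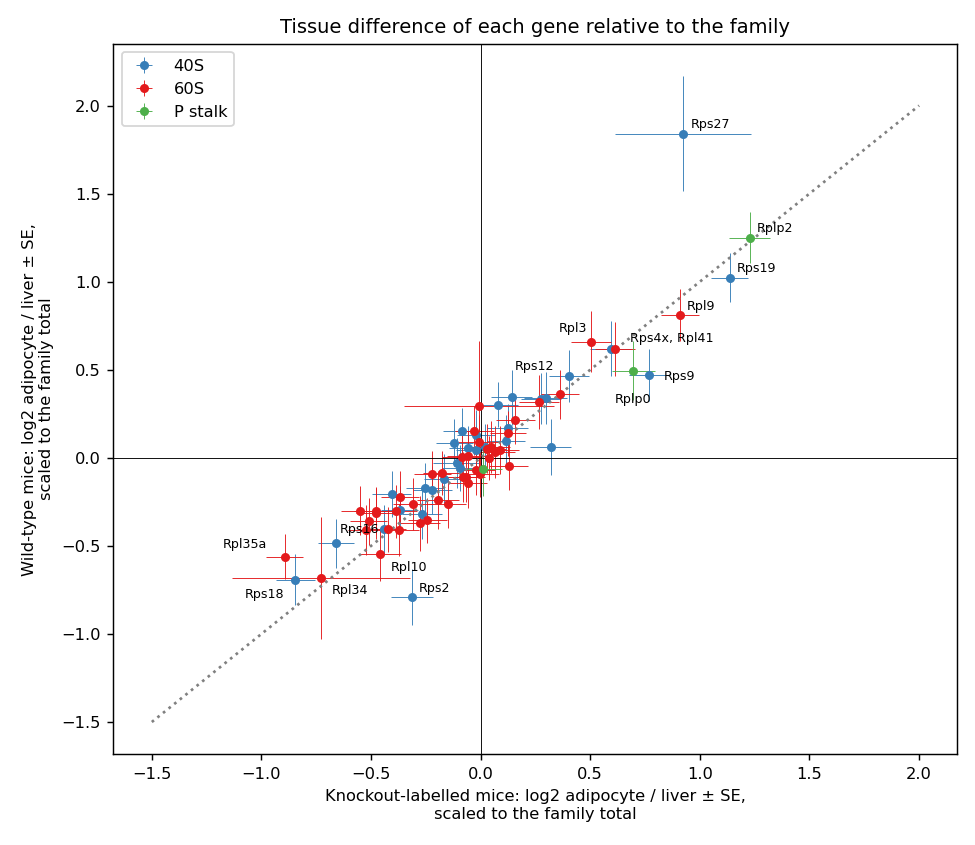
Log2 difference between adipocytes and liver with SE for each of the 75 tested genes, scaled to the summed counts of the family, in knockout-labelled mice (horizontal) and wild-type mice (vertical); colours mark the subunit, the dotted line equality, and genes far from 0 are named. Rplp2, Rps19 and Rpl9 lie high and Rps18, Rpl35a and Rps2 low in both.

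Rplp2, a stalk protein that binds elongation factors (chr7:141447370-141451585, plus strand), had 246, 231, 237 and 266 CPM in adipocytes and 168, 154, 152 and 161 CPM in liver of knockout-labelled mice. In wild-type mice it had 271, 301, 207 and 263 CPM in adipocytes and 136, 155, 140.0 and 154 CPM in liver. Every adipocyte library lay above every liver library. Its log2 difference between the tissues was 0.59 ± 0.08 in knockout-labelled mice (SE, 4 libraries per group, edgeR adjusted p = 3.98e-05) and 0.81 ± 0.12 in wild-type mice (edgeR adjusted p = 0.000124), and relative to the family 1.23 ± 0.09 and 1.25 ± 0.14. Its partners differed from it: relative to the family Rplp0, the stalk's base, stood at 0.70 ± 0.10 in knockout-labelled and 0.50 ± 0.17 in wild-type mice, and Rplp1, which pairs with Rplp2, at 0.01 ± 0.09 and -0.06 ± 0.15, neither passing for Rplp1. Rplp1 had 283 ± 29.95 CPM in adipocytes and 426 ± 18.4 CPM in liver of knockout-labelled mice, and 309 ± 43.9 CPM in adipocytes and 431 ± 41.3 CPM in liver of wild-type mice (SD, n = 4 each).

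Rps19, a 40S protein that is the gene most often mutated in human Diamond-Blackfan anaemia (chr7:24884371-24889806, plus strand), had 183, 183, 164 and 201 CPM in adipocytes and 126, 129, 127 and 123 CPM in liver of knockout-labelled mice. In wild-type mice it had 182, 219, 148 and 183 CPM in adipocytes and 109, 128, 116 and 128 CPM in liver. The tissues did not overlap in either genotype. On the log2 scale the difference was 0.50 ± 0.08 in knockout-labelled mice (edgeR adjusted p = 0.00014) and 0.58 ± 0.12 in wild-type mice (edgeR adjusted p = 0.00126), and relative to the family 1.14 ± 0.09 and 1.02 ± 0.14.

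Rpl9, a 60S protein (chr5:65388364-65391444, minus strand), had 200.3, 186, 171 and 228 CPM in adipocytes and 165, 152, 159.9 and 155 CPM in liver of knockout-labelled mice. In wild-type mice it had 209, 220.2, 182 and 215 CPM in adipocytes and 149, 182, 154 and 146 CPM in liver. The tissues stood close, the wild-type liver library of mouse WT-1136 nearly reaching the adipocyte library of mouse WT-1138. The log2 difference was 0.28 ± 0.09 in knockout-labelled mice (edgeR adjusted p = 0.0186) and 0.36 ± 0.11 in wild-type mice (edgeR adjusted p = 0.00979). It was not called without mouse KO-1139 (log2 difference 0.29) or KO-1152 (0.19) among the knockout-labelled mice, or without mouse WT-1153 (0.28) among the wild-type mice, and relative to the family it stood at 0.91 ± 0.09 and 0.81 ± 0.15.

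Lowest relative to the family in wild-type mice, though not in knockout-labelled mice, was Rps2, a 40S protein near the mRNA entry channel (chr17:24718116-24721929, plus strand). It had 295, 297, 284 and 321 CPM in adipocytes and 537, 598, 573 and 554 CPM in liver of knockout-labelled mice. In wild-type mice it had 257, 302, 219.6 and 232 CPM in adipocytes and 558, 560.1, 558 and 660.4 CPM in liver. No adipocyte library came near a liver library. Adipocytes over liver, the log2 difference was -0.95 ± 0.08 in knockout-labelled mice (edgeR adjusted p = 1.33e-06) and -1.23 ± 0.14 in wild-type mice (edgeR adjusted p = 8.61e-06), and relative to the family -0.31 ± 0.10 and -0.79 ± 0.16.

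Rps18, a protein of the head of the 40S subunit (chr17:33951999-33956001, minus strand), had 115, 106, 104 and 129 CPM in adipocytes and 297, 335, 312 and 291 CPM in liver of knockout-labelled mice. In wild-type mice it had 144, 149.8, 114 and 126 CPM in adipocytes and 239.9, 271, 309 and 337 CPM in liver. The tissues did not overlap, at log2 differences of -1.48 ± 0.09 in knockout-labelled mice (edgeR adjusted p = 9.03e-08) and -1.14 ± 0.14 in wild-type mice (edgeR adjusted p = 1.95e-05). Rpl35a, whose library values stand above, differed by -1.53 ± 0.08 in knockout-labelled mice (edgeR adjusted p = 2.3e-08) and -1.01 ± 0.11 in wild-type mice (edgeR adjusted p = 9.4e-06). Relative to the family Rps18 stood at -0.85 ± 0.09 and -0.69 ± 0.14, and Rpl35a at -0.89 ± 0.09 and -0.56 ± 0.13, in knockout-labelled and wild-type mice in that order. Of the other genes called lower in both genotypes, Rpl10, Rps16 and Rpl12 had log2 differences of -1.10, -1.29 and -1.16 in knockout-labelled mice and -0.99, -0.93 and -0.86 in wild-type mice. Rpl34 was called lower in both with TMM but not relative to the family; with TMM it stood at -1.39 ± 0.38 and -1.14 ± 0.34 and rests on the few counts given above.

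**Figure D5:**
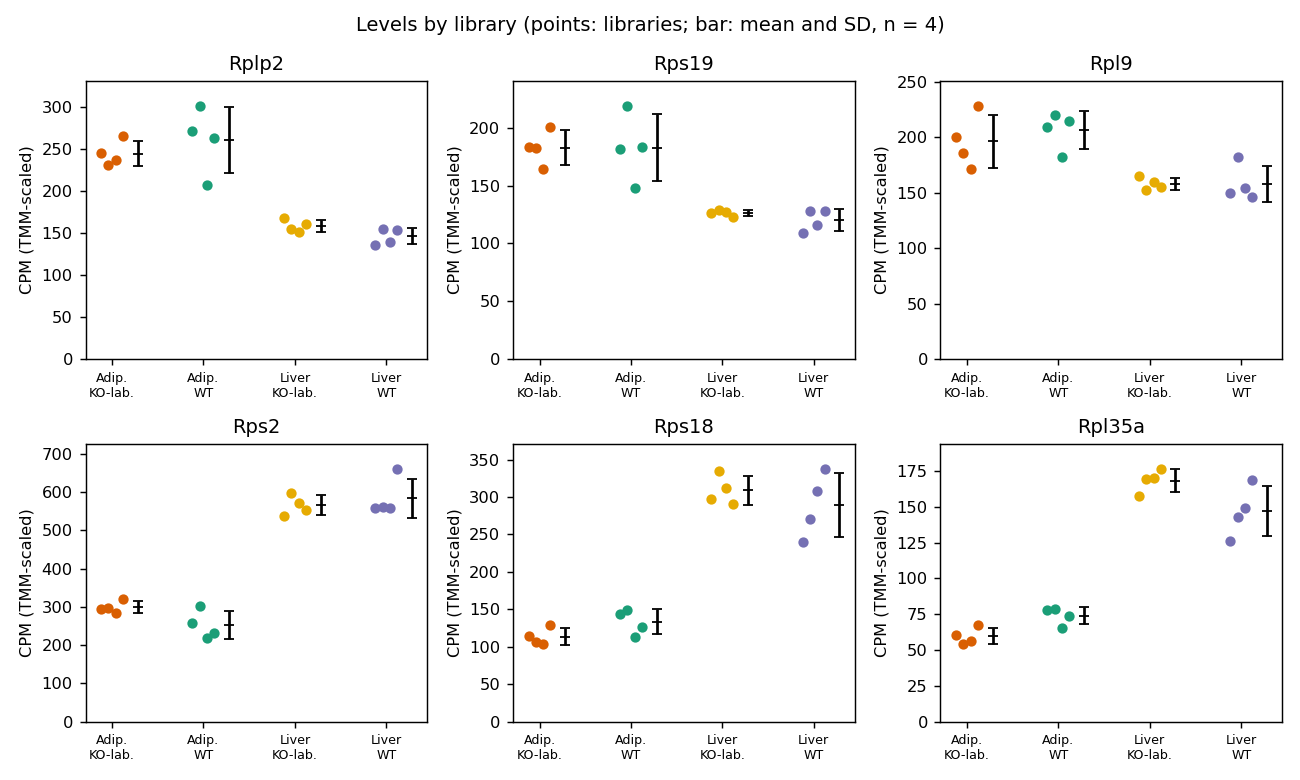
CPM in each library of 3 genes that lie high (Rplp2, Rps19, Rpl9) and 3 that lie low (Rps2, Rps18, Rpl35a) in adipocytes relative to the family, by group; points are libraries and bars the mean with SD (n = 4). Rplp2 averages 245 CPM in knockout-labelled and 261 CPM in wild-type adipocytes, above 159 and 146 CPM in liver, and Rps2 299 and 253 CPM in adipocytes, below 566 and 584 CPM in liver.

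Paralogs and fusion genes of the ribosome that the naming rule leaves out were looked at beside it. Rpl39l, a paralog of Rpl39 known in mice for its high level in the testis (chr16:10170226-10174911, plus strand), had 5.27, 4.46, 3.99 and 6.48 CPM in knockout-labelled adipocytes and 1.65, 2.15, 2.11 and 2.14 CPM in wild-type adipocytes. The groups did not overlap, and the log2 difference was 1.30 ± 0.19 (SE, 4 libraries per group, edgeR adjusted p = 0.00131). In liver it had 0.0792, 0, 0.0479 and 0 CPM in knockout-labelled and 0, 0, 0 and 0.0515 CPM in wild-type mice, with 0 counts in 5 of the 8 libraries, too few to test between genotypes. Rpl7l1, a paralog of Rpl7, had 41.9, 44.7, 42.3 and 44.2 CPM in knockout-labelled and 33.4, 38.1, 34.7 and 35.0 CPM in wild-type adipocytes, also without overlap, at a log2 difference of 0.27 ± 0.07 (SE, 4 libraries per group, edgeR adjusted p = 0.0125). These were the 2 called higher of the 8 genes of this list tested in adipocytes, and 0 were called lower. Of all genes 18% were called higher and 17.1% lower, and of the 75 family genes 0 were called higher.

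Rps27l, a paralog of Rps27 and a p53 target, was far lower in adipocytes than in liver, at 36.0, 36.1, 32.0 and 46.0 CPM in adipocytes and 148, 189, 168 and 147 CPM in liver of knockout-labelled mice. In wild-type mice it had 27.8, 35.0, 28.9 and 32.4 CPM in adipocytes and 132, 138, 177 and 176 CPM in liver. This gave a log2 difference of -2.15 ± 0.13 in knockout-labelled mice (edgeR adjusted p = 6.05e-08) and -2.35 ± 0.13 in wild-type mice (edgeR adjusted p = 3.49e-08), beyond that of any of the 75 family genes tested. Rpl36al, a paralog of Rpl36a, averaged 33.3 ± 4.13 CPM in adipocytes and 124 ± 4.23 CPM in liver of knockout-labelled mice, and 32.4 ± 4.43 CPM in adipocytes and 109 ± 12.5 CPM in liver of wild-type mice (SD, n = 4 each). Its log2 difference was -1.93 ± 0.09 and -1.77 ± 0.12 in these 2 genotypes. Rpl3l, a paralog of Rpl3 known from heart and skeletal muscle, stood at 0.0843 and 0.0252 CPM in knockout-labelled and wild-type adipocytes and at 0.290 and 0.253 CPM in liver, and Rpl10l, a paralog known in mice from the testis, had 0 counts in all 16 libraries. Fau, which encodes a ribosomal protein fused to a ubiquitin-like protein, and Rps3a1 were abundant like the family. Fau averaged 92.0 and 105 CPM in knockout-labelled and wild-type adipocytes and 169 and 164 CPM in liver, and Rps3a1 199 and 216 against 267 and 242 CPM, and neither passed between genotypes in either tissue.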

How the data were processed

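Raw counts per gene symbol, 1 file per library, were deposited by the authors, made with bcl2fastq 2.17, STAR 2.5.2b and featureCounts 1.5.0 on mm10 per the submitters' processing notes. How strand and multi-mapping reads were handled, and which annotation served, is not given in the sources used here. From 75.7 to 82.4% of values of 1 to 20 counts were even numbers, so ends of a read pair may have been counted apart, and a halved version was tried. Per the labels' protocols, adipocyte RNA came from a lipid tissue kit and liver RNA from TRIzol, both with poly-A selection and TruSeq libraries. The 76 genes and all lists were chosen with earlier results of these data known, so no count over them is independent evidence.

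Groups were tested with edgeR 4.0.16 in R 4.3.3 by the quasi-likelihood test on the deposited counts, with TMM, filterByExpr by group, two-sided p-values and Benjamini-Hochberg adjustment over all genes tested, at 0.05. The genotype comparisons used the 8 libraries of a tissue, the tissue comparisons the 8 libraries of a genotype, and the difference between tissues all 16. The genotype and tissue fits were tested on simulated data, and the fit of the difference between tissues was not. Each simulation changed 100 genes 2-fold and 100 genes 1.5-fold, all above a minimum level. Far more genes were called in the real adipocyte and tissue comparisons, so these rates need not hold there. The adipocyte genotype fit recovered 83% of 2-fold and 32% of 1.5-fold changes, and 1.71% of its calls were false. The liver genotype fit recovered 96% and 50%, and 8.75% of its calls were false, above the nominal 5%. Of 1.5-fold changes the tissue fits recovered 30% in wild-type and 52% in knockout-labelled mice, with 4.07% and 4.55% of calls false. Mice are separate animals, and the 2 libraries of a mouse are paired per the labels; after subtraction of group means they correlated at -0.084 to 0.14 per mouse across all genes and at -0.174 to 0.396 across the family's genes. Pairs of libraries within a group differed by a chi-square per degree of freedom of 30.4 or more. Limits for a count of 0 are 3 counts over the library total, without TMM factors, and cover counting error only.

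Levels in the text are CPM with TMM over 16 libraries; folds come from each comparison's own fit. Transcript lengths, coordinates and shared 50-base stretches come from GENCODE M21 on GRCm38, with the shortest principal transcript of a gene. Genes were named by a rule: in each genotype comparison the called genes or the 5 of smallest p, the 8 largest called in both tissue comparisons in each direction, the 8 of smallest p for the difference between tissues, the 5 highest and lowest per kilobase, those under 1 CPM, the stalk genes, the paralogs and fusion genes, and the 2 or 3 of smallest p of every other list. The genes called relative to the family, Rps26, and Gas5 in adipocytes were named after their values were seen, and some genes are not reported here. Alternatives were DESeq2 1.42.0, library totals, TMM without the family, no filter on low counts, counts of named pseudogenes added, halved counts, leaving out each library or mouse, all 16 libraries in a fit, age as a term, mice of 76 days, a stromal covariate, the mouse as a block and, added after the data were seen, scaling to the family total and the stromal covariate in liver.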

Additional observations from a re-analysis of the deposited data

Results flagged for a closer look

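Over the named family genes and paralogs and the family's share, 156 groups of 4 libraries were examined for a library far from the other 3, and 10 were found. This is near the share that chance gives, about 1 in 20, so the libraries listed here are not set apart from chance. The adipocyte library of mouse KO-1152 was the highest of its group for Rpl7a, at 315 CPM against 268 to 269 in the others, and for Rpl23a, at 182 CPM against 147 to 152. The liver library of the same mouse was the lowest of its group for Rpl13, at 163 CPM against 180.2 to 184, and the highest for Rps23, at 178 CPM against 165 to 167. Among wild-type livers mouse WT-1135 was the lowest for Rps23, at 135 CPM against 159.8 to 164, mouse WT-1138 the lowest for Rpl8, at 244 CPM against 269 to 273, and mouse WT-1153 the highest for Rps2, at 660.4 CPM against 558 to 560.1. Among wild-type adipocytes mouse WT-1138 was the lowest for Rps15a, at 90.7 CPM against 111 to 113, and mouse WT-1135 the lowest for Rpl39l, at 1.65 CPM against 2.11 to 2.15. Rpl39l was at 0.0515 CPM in the wild-type liver of mouse WT-1153 and at 0 in the other 3, a difference of single counts.

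The difference between genotype labels differed between adipocytes and liver for Rpl35a, by -0.51 on the log2 scale (edgeR adjusted p = 0.0146), and for Rpl27a, by -0.43 (edgeR adjusted p = 0.0455). The call of Rpl27a was lost with the mouse as a block (0.0901) and without any 1 of 6 of the 8 mice (edgeR adjusted p = 0.0362 to 0.172 over the 8). For Rpl35a knockout-labelled libraries lay lower in adipocytes and higher in liver.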

How the results depend on the processing

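The number of family genes called lower in knockout-labelled adipocytes, 3, was 10 with DESeq2, 34 with library totals, 1 scaled to the family total, 6 with all 16 libraries in the fit, 0 among the mice of 76 days and 0 with the stromal covariate, and 1 to 11 when each library was left out; the number called higher was 0 to 1. Their median of -0.16 was -0.35 with library totals. The stromal covariate did not overlap between the genotype labels in adipocytes, so it cannot be told apart from the label. For the difference between tissues, the 2 genes called lower became 4 with DESeq2, 28 with library totals, 1 with no filter on low counts and 0 scaled to the family total (1 higher), and 0 to 6 when each mouse was left out. The median of -0.23 became -0.47 with library totals, where that of all genes was -0.24, and -0.046 scaled to the family total. Shares of all genes called are given only for the settings where they stand above. Counts under the other settings show how calls vary with the setting and are no result about the family. With the mouse as a replicate block, a pairing given by the labels, 1 gene was called lower there, and in the tissue comparisons 4 higher and 52 lower in wild-type and 3 higher and 65 lower in knockout-labelled mice, so the block changed no other count by over 1.5 times. All liver genotype counts stayed at 0 under every alternative run.

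Between tissues in knockout-labelled mice, 3 higher and 65 lower became 8 and 42 with library totals (median -0.27) and 15 and 24 scaled to the family total (median -0.058). Signs turned under library totals for Rpl23a (0.14), Rpl41 (0.40) and Rps12 (0.19), and scaled to the family total for Rpl23a (0.36), Rpl41 (0.61), Rplp1 (0.009), Rps12 (0.40), Rps15a (0.081), Rps20 (0.12), Rpl22l1 (0.079), Rpl7l1 (0.019) and Rps3a1 (0.17). In wild-type mice, 4 higher and 54 lower became 22 and 4 with library totals (median 0.18) and 14 and 12 scaled to the family total (median -0.029). Signs turned under library totals for Rpl13 (0.37), Rpl23a (0.56), Rpl29 (0.12), Rpl8 (0.31), Rplp1 (0.15), Rps15a (0.51), Rps20 (0.38), Rps21 (0.37), Rps23 (0.29), Rps29 (0.34), Rpl22l1 (0.13) and Rps3a1 (0.46), and scaled to the family total for Rpl23a (0.36), Rpl8 (0.092), Rps15a (0.30), Rps23 (0.085) and Rps29 (0.13). These lists cover only the genes picked by the naming rule and the paralogs, and only turns of genes called under at least 1 of the scalings compared. Other family genes turned too, such as Rpl3 in knockout-labelled mice, at -0.13 with TMM and 0.50 scaled to the family total. All such turns follow from the shift of the scale itself. Rpl26, Rpl30, Rpl34 and Rps27 have few counts, and whether more depth would change them was not tested.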

Other observations

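In liver 0.0226% of all genes were called between genotype labels and 8.62% had an unadjusted p under 0.05. Of 42 ribosome biogenesis genes 0 were called by edgeR in knockout-labelled against wild-type liver, 5 having an unadjusted p under 0.05, all higher, and the median log2 difference was 0.14. Nop58, a core protein of box C/D small nucleolar RNA particles, stood at 0.60 (edgeR adjusted p = 0.492) and Nop2, a methyltransferase of the large ribosomal RNA, at 0.41 (edgeR adjusted p = 0.485). The mitochondrial ribosomal protein genes, 44 of 76 of which were called higher in knockout-labelled adipocytes, had 0 calls in liver and a median of 0.01.

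Between tissues, where 40.4% of all genes were called higher and 39.3% lower in knockout-labelled mice and 40.5% and 37.2% in wild-type mice, 14 of 76 mitochondrial ribosomal protein genes were called higher and 41 lower in adipocytes of knockout-labelled mice, and 5 higher and 57 lower in those of wild-type mice. With 3 of 75 higher and 65 lower in knockout-labelled mice and 4 higher and 54 lower in wild-type mice, the cytosolic family had more genes called lower in knockout-labelled mice and the mitochondrial one fewer. The difference between genotypes, tested directly, was called higher for 24 and lower for 0 mitochondrial genes, and higher for 0 and lower for 2 cytosolic ones, where 10.4% of all genes were called higher and 8.73% lower.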
